A study of Mus musculus with 42 samples.

Results

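The Piezo and acid-sensing ion channels examined here were 6 genes, Piezo1, Piezo2, Asic1, Asic2, Asic3 and Asic4, chosen by symbol from the array annotation, of 18337 genes with a single-gene probe set on either array type. All 6 had such a probe set on Mouse430_2 (7 probe sets, Piezo2 having 2), and Asic2 alone had one on MG-U74Av2. The samples came from BALB/c mice, an inbred strain, kept under standard housing with no treatment named. Neurons of the nodose ganglion (NG), which holds vagal afferents of the inner organs, were set against neurons of the dorsal root ganglion (DRG), which holds spinal afferents of skin, muscle and viscera. The groups were captured NG neurons (n = 11) and captured DRG neurons (n = 9) on Mouse430_2, captured NG neurons (n = 5) and captured DRG neurons (n = 5) on MG-U74Av2, and whole NG (n = 7) and whole DRG (n = 5) on MG-U74Av2. A captured sample held about 150 neurons cut out of tissue by laser microdissection. The labelling text gives about 12 µg of RNA per sample, which it calls amplified for the captured MG-U74Av2 samples and total for all others. Whether RNA of the captured Mouse430_2 samples was amplified too is unclear, since each held only about 150 neurons. The captured cells are called visceral neurons, with no word on how these were told from other neurons. The labels do not tie samples to separate animals, so the p-values rest on the spread from sample to sample, which can be technical. In pooled RNA, fewer cells of a type and less RNA per cell cannot be told apart.

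Piezo1 and Piezo2 form mechanically gated cation channels that open when the membrane is stretched or indented. In mice, Piezo2 carries touch and proprioception in DRG neurons and lung stretch in vagal neurons, and both channels serve blood pressure sensing by NG neurons. The acid-sensing ion channels (ASICs) are sodium channels of the degenerin and epithelial sodium channel (DEG/ENaC) family that open when protons bind outside the cell. They assemble as trimers of equal or mixed subunits. Asic1 and Asic3 form proton-gated channels, Asic3 being best known from pain and muscle acid sensing, Asic2 mainly modifies the others, and Asic4 alone gives no proton-gated current.

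The values were array signals, a brightness in arbitrary units with no molecule count behind it, so the number of arrays limits the precision. Arrays of an experiment were brought to a common trimmed mean. Differences are NG minus DRG on the log2(signal + pseudocount) scale, from limma fitted to all probe sets that passed a signal filter. P-values were adjusted over these by Benjamini-Hochberg, with a threshold of 0.05. On Mouse430_2, 28107 probe sets were tested, the 7 Piezo and Asic probe sets among them. The pan-neuronal genes were present in both captured groups, with summed signals of 17452 to 24439 in NG neurons and 18626 to 26783 in DRG neurons. Of the 9 tested, 3 were called higher and 2 lower in NG neurons. These calls moved with the scaling, to 3 higher and 0 lower under the same median and 1 higher and 3 lower under quantile normalization. Glial genes, of satellite and Schwann cells, gave signal too, with sums of 11583 to 14412 in NG neurons and 14361 to 17476 in DRG neurons, and 4 of the 10 tested (S100b, Gja1, Glul and Fabp7) were lower in NG neurons. Of 9 tested genes of mural cells and fibroblasts, 4 were lower (Rgs5, Dcn, Pdgfrb and Acta2), with sums of 1383 to 2680 in NG neurons and 3175 to 5756 in DRG neurons. The Acta2 call was lost under scaling to the same median (adjusted p = 0.111) and under quantile normalization (0.0644). Of 5 tested macrophage and lymphocyte genes, 1 was higher (H2-Aa), and neither of 2 red blood cell genes was called. Glul and Dcn were called on 1 of 2 tested probe sets each and Gja1 on 5 of 6. What part these cells had in the channel differences was not tested.

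Among captured neurons on Mouse430_2, Piezo1 was higher in NG neurons than in DRG neurons, and Piezo2, Asic1 and Asic3 were lower. Asic2 and Asic4 did not pass the test. So 1 of 6 genes was called higher, against 9.72% of all probe sets tested, and 3 of 6 were called lower, against 12.5%, or 4 of 6 in either direction against 22.2%. Under a scaling to the same median on every array, calls over all probe sets were 3845 higher and 2210 lower, in place of 2733 higher and 3517 lower, while no call of the 7 probe sets changed. The median log2 difference of the 6 genes was -0.62, beside -0.05 over all probe sets tested. NG and DRG arrays did not overlap for 2 of the genes, Piezo1 and Asic3, against 3.84% of all probe sets tested.

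**Figure D1:**
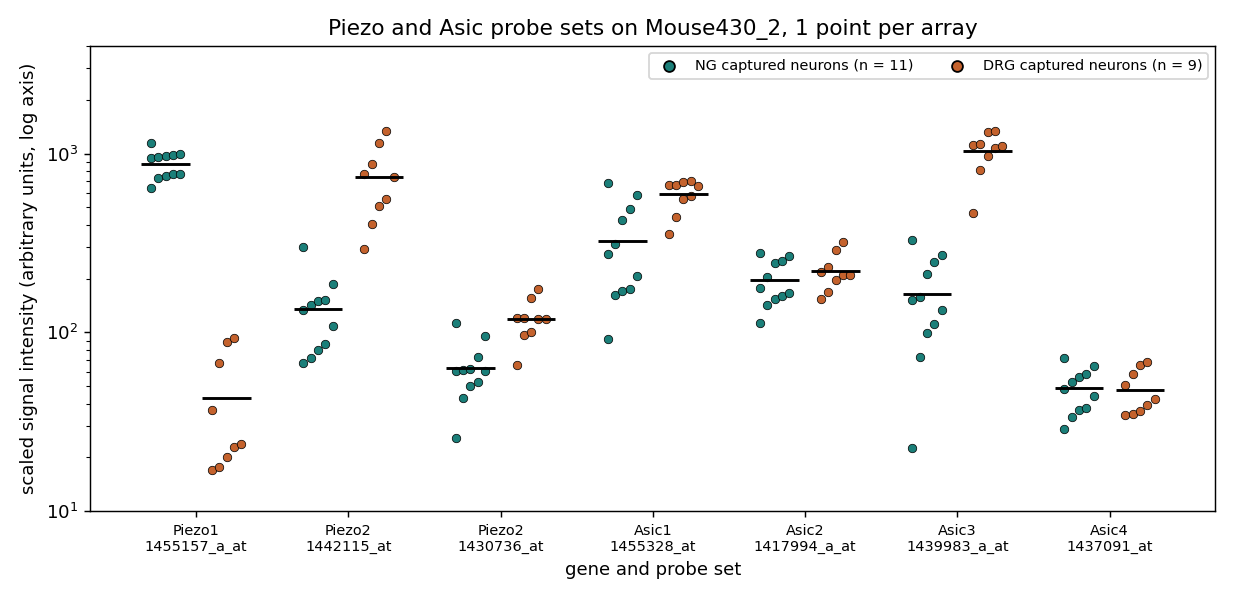
Scaled signal of each Piezo and Asic probe set on Mouse430_2, on a log axis in arbitrary units. Each point is an array, captured NG neurons on the left and captured DRG neurons on the right of each pair, and the bar is the group mean. The 11 NG arrays of Piezo1 lie above all 9 DRG arrays, and those of Asic3 lie below them, while the groups intermix for Asic2 and Asic4. Heights of different probe sets cannot be compared.

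The sequences in front of these 2 genes are shown because theirs are the signals whose groups were apart, in opposite directions. They are the 250 bases before the RefSeq start on build GRCm38.p6, with Piezo1 at chr8:122551330-122551579 on the minus strand and Asic3 at chr5:24413201-24413450 on the plus strand. Capitals mark the motifs GGGCGG and TATAAA, searched on both strands; they do not overlap each other.
Piezo1: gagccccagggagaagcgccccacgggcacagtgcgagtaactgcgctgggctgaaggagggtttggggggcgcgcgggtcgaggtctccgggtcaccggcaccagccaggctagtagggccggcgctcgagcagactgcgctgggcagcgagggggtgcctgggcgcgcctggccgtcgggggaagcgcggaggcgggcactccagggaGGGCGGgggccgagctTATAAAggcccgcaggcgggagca
Asic3: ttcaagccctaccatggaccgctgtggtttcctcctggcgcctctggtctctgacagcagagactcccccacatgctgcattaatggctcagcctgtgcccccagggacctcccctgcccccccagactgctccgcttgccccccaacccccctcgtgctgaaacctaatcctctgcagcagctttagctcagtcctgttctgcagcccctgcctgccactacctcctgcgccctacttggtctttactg

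The Piezo1 window held GGGCGG 40 bases and TATAAA 24 bases before the start, both as read 5′ to 3′ here. Of 32851 RefSeq windows of this length, 32.7% held GGGCGG and 12.4% held TATAAA. The Piezo1 window had 26 CpG and 74% G and C, and the Asic3 window had 5 CpG and 61.6% G and C, with a median of 6 CpG over all windows. Neither motif was in the Asic3 window. Asic1 and Asic2 windows were searched as well and held neither motif. No window of Piezo2 or Asic4 was searched, so whether theirs hold the motifs is not known here.

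Piezo1 was read by probe set 1455157_a_at. Its signal ran from 642 through a median of 947 to 1153 in NG neurons, against 17.0, 23.7 and 93.4 in DRG neurons. The lowest NG array was 6.88 times the highest DRG array. Means were 879 ± 153 in NG neurons (SD, n = 11) and 43.1 ± 31.4 in DRG neurons (SD, n = 9), a log2 difference of 4.34 (SE 0.241, limma adjusted p = 2.32e-13), or 20.3-fold on the scale with the pseudocount. NG arrays were much alike, spanning 1.79-fold between the lowest and highest. DRG arrays spanned 5.48-fold, and only 4 of 9 lay above the 40th percentile of their own array, so that the DRG level is near the dim end where a signal may be background and the probe set was tested because of its NG arrays. A floor set after the values were seen raised every array to at least its own 40th percentile. Piezo1 then came out 22.2-fold higher in NG neurons, a point estimate without an interval. The limma log2 difference had a 95% interval from 3.85 to 4.84. The 4 brighter DRG arrays, of sample numbers 15, 5, 3 and 6, read 93.4, 88.7, 67.3 and 37.03.

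Piezo1 is also a channel of blood vessel walls, so endothelial genes are given beside it. Of 10 tested endothelial genes, Kdr and Flt1, receptors of vascular endothelial growth factor, were higher in NG neurons (log2 differences of 2.44 and 1.38, limma adjusted p = 4.89e-08 and 0.00251), Flt1 on 2 of its 4 probe sets. Esam, an endothelial adhesion molecule, was lower at -0.82 (adjusted p = 0.00556), and 7 were not called. The summed endothelial signal ran from 990 through a median of 1466 to 1572 in NG neurons, against 857, 1013 and 1305 in DRG neurons. The ranges overlapped, and 8 of 11 NG arrays lay above the highest DRG array, in the same direction as Piezo1. Kdr alone averaged 487 in NG neurons and 84.5 in DRG neurons, and its signal is part of these sums. The median log2 difference of the 10 tested endothelial genes was -0.12, in the opposite direction. The part of endothelial cells in the Piezo1 difference was not tested. The defining markers Pecam1, at a mean of 7.20 in NG neurons and 9.12 in DRG neurons, and Tie1, at 2.995 in NG neurons and 5.86 in DRG neurons, were too dim to be tested. Within NG arrays and within DRG arrays, 10 correlations of Piezo1 with the summed signals of endothelial, glial, mural, immune and red blood cell genes were computed. None passed adjustment over the 10 by permutation test (lowest adjusted p = 0.767). For endothelial genes within NG arrays, r was -0.21. Without the 2 arrays farthest from the median endothelial sum, r was 0.52. With so few arrays, these tests could miss a relation.

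Piezo2 was read by 2 probe sets that differed in the same direction. On 1442115_at the signal ran from 67.5 through 133 to 301 in NG neurons, against 293, 744 and 1343 in DRG neurons. Only the highest NG array lay within the DRG range. Means were 135 ± 67.5 in NG neurons (SD, n = 11) and 738 ± 344 in DRG neurons (SD, n = 9), a log2 difference of -2.38 (SE 0.262, limma adjusted p = 9.79e-08), 5.19-fold lower in NG neurons. Both ganglia varied widely between arrays, 4.47-fold in NG neurons and 4.59-fold in DRG neurons.

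On 1430736_at, the dimmer Piezo2 probe set, the signal ran from 25.6 through 60.8 to 112 in NG neurons, against 66.0, 119 and 174 in DRG neurons. Here 3 NG arrays lay within the DRG range. The log2 difference was -0.87 (SE 0.201, limma adjusted p = 0.00203), smaller than on the other probe set. The 2 probe sets followed each other across the 9 DRG arrays (Pearson r = 0.66, permutation p = 0.0511, adjusted 0.102; Spearman rho = 0.83, permutation p = 0.00827, adjusted 0.0165). Without the 2 arrays farthest from the median, r was 0.70. Across the 11 NG arrays, r was -0.34 (permutation p = 0.317) and rho was -0.52 (permutation p = 0.107).

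Asic3, read by 1439983_a_at, had the largest difference of the 4 ASIC genes. Its signal ran from 22.6 through 152 to 327 in NG neurons, against 467, 1109 and 1333 in DRG neurons. No NG array reached the DRG range, the lowest DRG array being 1.43 times the highest NG array. Means were 164 ± 91.3 in NG neurons (SD, n = 11) and 1037 ± 267 in DRG neurons (SD, n = 9), a log2 difference of -2.79 (SE 0.309, limma adjusted p = 9.93e-08), 6.93-fold lower in NG neurons. NG arrays differed 14.5-fold among themselves, from the dimmest, of sample number 7, to the brightest, of number 1. All 11 NG arrays still lay above the 40th percentile of their own array.

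Asic1, read by 1455328_at, was lower in NG neurons by a smaller amount. Its signal ran from 91.9 through 274 to 688 in NG neurons, against 357, 659 and 706 in DRG neurons, and 4 NG arrays lay within the DRG range. Means were 325 ± 195 in NG neurons (SD, n = 11) and 592 ± 121 in DRG neurons (SD, n = 9), a log2 difference of -1.05 (SE 0.273, limma adjusted p = 0.00552), or 2.07-fold. NG arrays spanned 7.49-fold and DRG arrays 1.98-fold. The call was lost with only the 6 NG and 4 DRG arrays whose sample numbers are absent from MG-U74Av2 (-0.86, adjusted p = 0.131).

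Asic4, read by 1437091_at, averaged 48.6 ± 13.7 in NG neurons (SD, n = 11) and 47.9 ± 13.5 in DRG neurons (SD, n = 9). It ran from 28.9 through 48.5 to 71.7 in NG neurons, against 34.5, 42.5 and 68.0 in DRG neurons, and all 9 DRG arrays lay within the NG range. The log2 difference was 0.02, with a 95% interval from -0.35 to 0.39 (limma adjusted p = 0.965). Asic4 was dim in both ganglia. It lay at percentiles 46.6 to 66.9 of its array in NG neurons and 52.8 to 63.6 in DRG neurons. Part of this signal may be background, which would hide a difference.

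Asic2, read by 1417994_a_at on this array, ran from 113 through 178 to 276 in NG neurons, against 153, 210 and 321 in DRG neurons. Means were 196 ± 55.7 in NG neurons (SD, n = 11) and 222 ± 53.7 in DRG neurons (SD, n = 9). The log2 difference was -0.19, with a 95% interval from -0.54 to 0.16 (limma adjusted p = 0.496). This interval includes the -0.48 found by another probe set in captured neurons on MG-U74Av2, given below.

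**Figure D2:**
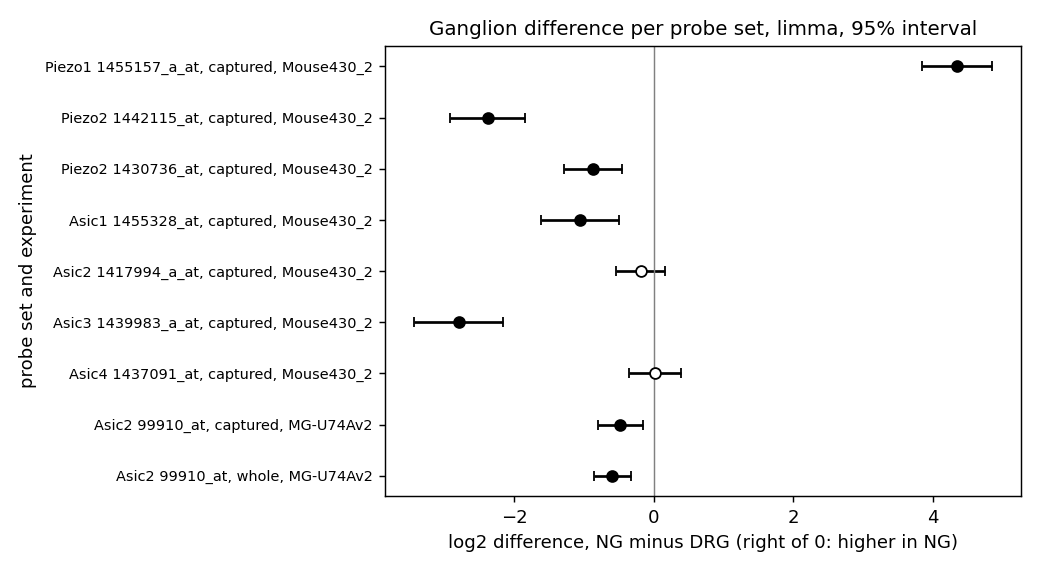
Log2 difference, NG minus DRG, of each probe set, with its 95% interval from limma. Filled points have an adjusted p under 0.05 and open points do not. Piezo1 stands at 4.34, Asic3 at -2.79 and the brighter Piezo2 probe set at -2.38, while the intervals of Asic2 and Asic4 on Mouse430_2 include 0.

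Asic2 was the one gene of the 6 that could be followed through whole ganglia and both sets of captured neurons, on MG-U74Av2 by probe set 99910_at. In whole NG it ran from 389 through 507 to 622, against 598, 755, 755, 867 and 937 in the 5 whole DRG samples. One whole NG sample, of number 39, lay within the DRG range. Means were 514 ± 78.5 in whole NG (SD, n = 7) and 782 ± 129 in whole DRG (SD, n = 5), a log2 difference of -0.59 (SE 0.128, limma adjusted p = 0.00153). In this comparison 35.4% of 7698 probe sets tested were called in either direction and 15.8% of those tested were called lower.

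In captured neurons on MG-U74Av2, Asic2 read 295, 285, 451, 421 and 360 in NG neurons, against 531, 455, 483, 532 and 506 in DRG neurons. All 5 NG samples lay below all 5 DRG samples, and such a gap was found for 16.3% of the 7583 probe sets tested, but the lowest DRG sample exceeded the highest NG sample by a factor of only 1.01. Means were 363 ± 73.8 in NG neurons and 502 ± 33.0 in DRG neurons (SD, n = 5 each), a log2 difference of -0.48 (SE 0.150, limma adjusted p = 0.0348), where 21.8% of probe sets were called and 11.3% as lower. This call was near its threshold and was lost without any one of 7 of the 10 samples, with adjusted p up to 0.0828.

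Set on 1 scale, whole and captured samples on MG-U74Av2 gave Asic2 means, from low to high, of 384 ± 78.1 in captured NG neurons, 491 ± 75.0 in whole NG, 531 ± 34.9 in captured DRG neurons and 748 ± 123 in whole DRG (SD, n = 5, 7, 5 and 5). Captured NG neurons (302 to 478) overlapped whole NG (372 to 594), and whole NG overlapped captured DRG neurons (482 to 564). Captured DRG neurons lay below whole DRG (572 to 896), but only narrowly, with the highest captured sample at 564 and the lowest whole sample at 572. The share of all probe sets with such a gap was not counted. Captured minus whole was -0.35 in NG (SE 0.133, limma adjusted p = 0.0263), where 55.3% of 8309 probe sets were called, and -0.47 in DRG (SE 0.144, limma adjusted p = 0.00865), where 47.2% were called. Capture, RNA amplification and experiment changed together here and cannot be told apart. The call in NG was lost under scaling to the same median (-0.18, adjusted p = 0.272), and without whole NG samples 39 or 46 or captured NG samples 3 or 7. The ganglion difference in captured samples minus that in whole ganglia was 0.12 (SE 0.196, 95% interval -0.29 to 0.52, limma adjusted p = 0.732), where 18.2% of probe sets were called.

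**Figure D3:**
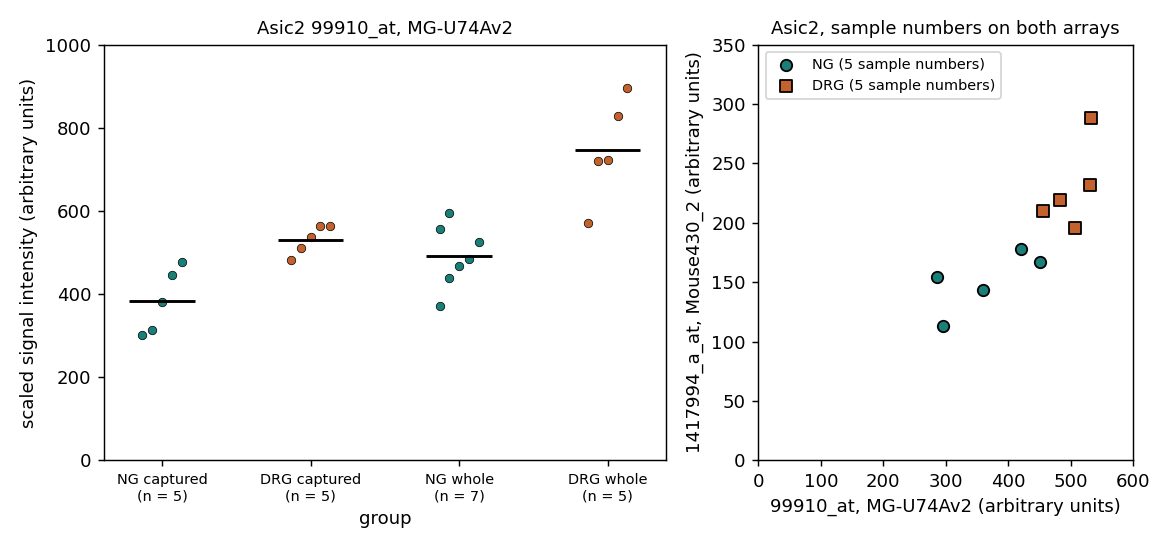
Left, Asic2 signal of probe set 99910_at on MG-U74Av2 in arbitrary units, with the 4 groups scaled together, points for samples and bars for group means. Right, Asic2 on MG-U74Av2 against Asic2 on Mouse430_2 for the sample numbers that occur on both array types. The 5 NG numbers lie below the 5 DRG numbers on both axes, and the share of all probe sets with such a gap was not counted. Over all Mouse430_2 arrays, 9 of 11 NG arrays lay within the DRG range of Asic2.

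Sample numbers recur between the captured experiments, 5 in NG and 5 in DRG, though no source says that a number marks the same RNA. On Mouse430_2, the recurring NG numbers averaged 151 ± 25.0 for Asic2 (n = 5) and the recurring DRG numbers 229 ± 35.9 (SD, n = 5). The numbers found only there averaged 234 ± 43.9 in NG neurons (n = 6) and 213 ± 76.2 in DRG neurons (SD, n = 4). The ganglion difference was -0.58 (limma adjusted p = 0.045) over the recurring numbers and 0.17 (adjusted p = 0.729) over the others. The difference between these 2 differences, a test added after the values were seen, was -0.75 (SE 0.299, limma unadjusted p = 0.0191, adjusted p = 0.211). For Piezo2 on 1442115_at it was 1.16 (SE 0.467, limma unadjusted p = 0.0203, adjusted p = 0.218). That fit called 694 of 28107 probe sets, or 2.47%, and none of the 7 Piezo and Asic probe sets.

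Within each ganglion, the 6 genes did not track one another beyond what adjustment allows. Of 30 correlations between pairs of genes on Mouse430_2, 15 in each ganglion, 0 passed adjustment by permutation test. The lowest unadjusted p was that of Piezo1 and Asic2 across 9 DRG arrays (r = -0.67, permutation p = 0.043, adjusted p = 0.573), and r was -0.22 without the 2 arrays farthest from the median.

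Other genes were ranked by how closely their signal followed each channel over the 20 Mouse430_2 arrays, among 8781 genes. This likeness includes the ganglion difference itself, so the correlation of deviations from the group means is given with it, both as descriptions. Piezo1 was most like Tes (r = 0.96), Hoxb5 (0.96) and Galc (0.96), and their deviations from the group means correlated at 0.22, 0.12 and 0.27. Piezo2 was most like Htra1 (0.96), Scn7a (0.95) and Camk1d (0.95), with deviations at 0.78, 0.75 and 0.75. Asic3 was most like Sytl2 (0.95), Ryr2 (0.95) and Myh10 (0.94), with deviations at 0.78, 0.73 and 0.74.

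Asic1 was most like Mt1 (r = 0.85), Card19 (0.84) and Gprc5c (0.82), with deviations at 0.74, 0.73 and 0.68. Cartpt was closest to it in deviations (0.85, with r = 0.66 over all arrays). Asic2 was most like Hspb1 (0.84), Lzts1 (0.84) and Rnf207 (0.76), with deviations at 0.83, 0.83 and 0.74. Asic4 was most like Cntrob (0.79), Dyrk1b (0.77) and Faap24 (0.75), among 8782 genes, with deviations at 0.79, 0.77 and 0.75. By deviations alone, Atp6v1d (0.76) was closest to Piezo1, Mtf2 (0.86) to Piezo2 and Pdk3 (0.79) to Asic3. These arrays share their scaling and their RNA handling.

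Of the other DEG/ENaC genes, Scnn1a and Scnn1b, subunits of the epithelial sodium channel, were tested on Mouse430_2 and neither was called. Asic5 and Scnn1g were too dim to be tested. The ASIC partners and regulators numbered 15 tested genes, of which 4 were higher and 4 lower in NG neurons, with a median log2 difference of 0.00. Over all probe sets tested on Mouse430_2, 9.72% were called higher and 12.5% lower. These shares belong beside the count of every gene list, and a list with few calls does not stand out from them.

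Stom, a membrane protein that in mice inhibits Asic3 currents, had the largest difference among the higher partners. It averaged 463 ± 94.9 in NG neurons (SD, n = 11) and 95.6 ± 25.2 in DRG neurons (SD, n = 9) on 1438910_a_at, a log2 difference of 2.20 (limma adjusted p = 2.37e-11). Its probe sets disagreed, since 1419097_a_at gave 0.33 (adjusted p = 0.103) and 1449341_a_at gave -0.16 (adjusted p = 0.575). On MG-U74Av2 its brightest probe set gave 0.11 in whole ganglia (adjusted p = 0.678) and -0.02 in captured neurons (adjusted p = 0.947). There 100051_at gave 0.46 in whole ganglia, called higher by limma (adjusted p = 0.0169), and 0.35 in captured neurons (adjusted p = 0.124). The related Stoml2 (0.82, adjusted p = 0.00491) and Stoml1 (0.72, adjusted p = 0.000144) and the scaffold Pick1, which binds Asic1 and Asic2 (0.65, adjusted p = 0.000878), were higher as well by limma. Pick1 was also higher in whole NG (0.77, limma adjusted p = 0.000102), and in captured neurons on MG-U74Av2 it read 0.41 (adjusted p = 0.139). Stoml2 too was higher in whole NG (0.97, limma adjusted p = 4.68e-06), and captured neurons on MG-U74Av2 gave 0.27 (adjusted p = 0.289). Stoml3, a stomatin-like protein needed for touch in mice, was too dim to be tested.

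The lower partners were led by Cav1, a caveolar coat protein (-1.52, limma adjusted p = 0.000164). Cav1 was not called in whole ganglia (-0.32, adjusted p = 0.108) or in captured neurons on MG-U74Av2 (-1.09, adjusted p = 0.0956). Nedd4l, a ubiquitin ligase that removes epithelial sodium channels from the membrane, averaged 271 ± 59.1 in NG neurons (SD, n = 11) and 511 ± 95.8 in DRG neurons (SD, n = 9), a difference of -0.91 (limma adjusted p = 1.79e-05). Among its dim probe sets on Mouse430_2, 1456044_at gave -0.77 (adjusted p = 0.0971) and 1457374_at gave -0.16 (adjusted p = 0.76), neither called. On MG-U74Av2 its brightest probe set was lower too, with -0.94 in whole ganglia (limma adjusted p = 6.02e-06) and -1.09 in captured neurons (adjusted p = 1.47e-05). The dimmer one, 103907_at, gave -1.23 in whole ganglia (adjusted p = 1.04e-05) and -0.10 in captured neurons (adjusted p = 0.708). Magi1, a junctional scaffold, was lower by limma at -0.87 (adjusted p = 0.00542), and the nitric oxide synthase Nos1 at -0.47 (adjusted p = 0.0161), though the Nos1 call was lost under scaling to the same median (-0.32, adjusted p = 0.142) and a dim probe set of it, 1458626_at, gave 0.18 (adjusted p = 0.622). Prkca, the protein kinase that acts on Asic2 channels through Pick1, was lower in whole NG (-1.04, limma adjusted p = 1.25e-05) and in captured NG neurons on MG-U74Av2 (-0.96, adjusted p = 0.000478). On Mouse430_2 its probe sets disagreed: the brightest, 1437393_at, gave -0.27 (adjusted p = 0.0954), and 1450945_at gave -1.31 (adjusted p = 0.000478).

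Of 7 tested Piezo partners and regulators, 1 was higher in NG neurons and none was lower, with a median of 0.06. The one was Tmem120a, a membrane protein described as a modulator of Piezo2 (133 ± 29.4 in NG neurons, 76.5 ± 16.1 in DRG neurons, log2 difference 0.73, limma adjusted p = 0.00117). Mdfic, which binds Piezo1 and slows its inactivation, was at 0.21 (adjusted p = 0.804) on Mouse430_2 and higher in whole NG at 1.29 (limma adjusted p = 1.33e-05). Captured neurons on MG-U74Av2 gave Mdfic 0.40 (adjusted p = 0.464).

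Among 10 tested channels of other families that respond to force, 3 were higher and 1 was lower in NG neurons. The higher ones were Tmem63c (0.75, limma adjusted p = 0.0306), of a family of channels opened by membrane tension, Trpv2 (0.56, adjusted p = 0.0348), and Lrrc8a (0.54, adjusted p = 0.0165), the core subunit of the volume-regulated anion channel. On MG-U74Av2, Trpv2 was not called in whole ganglia (-0.14, limma adjusted p = 0.224) or captured neurons (0.33, adjusted p = 0.132). Lrrc8a was higher there in captured neurons (0.51, adjusted p = 0.0329) but not called in whole ganglia (0.07, adjusted p = 0.761). The stretch-activated potassium channel Kcnk2 (TREK-1) was lower, at 481 ± 151 in NG neurons (SD, n = 11) and 944 ± 339 in DRG neurons (SD, n = 9), a difference of -0.94 (limma adjusted p = 0.000559). In captured neurons on MG-U74Av2 it was lower too (-0.86, limma adjusted p = 0.0232), and in whole ganglia it was higher in NG (0.51, adjusted p = 0.00359). The difference between these 2 ganglion differences was -1.37 (SE 0.278, limma adjusted p = 0.000974).

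Among 7 tested acid sensors other than ASICs, 3 were higher and 1 was lower in NG neurons. The proton-sensing receptor Gpr65 averaged 349 ± 109 in NG neurons and 15.7 ± 5.37 in DRG neurons, a log2 difference of 3.92 (limma adjusted p = 4.35e-15). In DRG neurons 0 of 9 arrays lay above their own 40th percentile. With arrays raised to that percentile, Gpr65 came out 14.3-fold higher in NG neurons, a point estimate without an interval. The ATP-gated channels P2rx2 (2.91, limma adjusted p = 2.71e-11) and P2rx3 (0.95, adjusted p = 1.74e-07), whose currents protons modulate, were higher as well. The proton- and capsaicin-gated channel Trpv1 was lower at -1.80 (limma adjusted p = 3.56e-08).

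**Figure D4:**
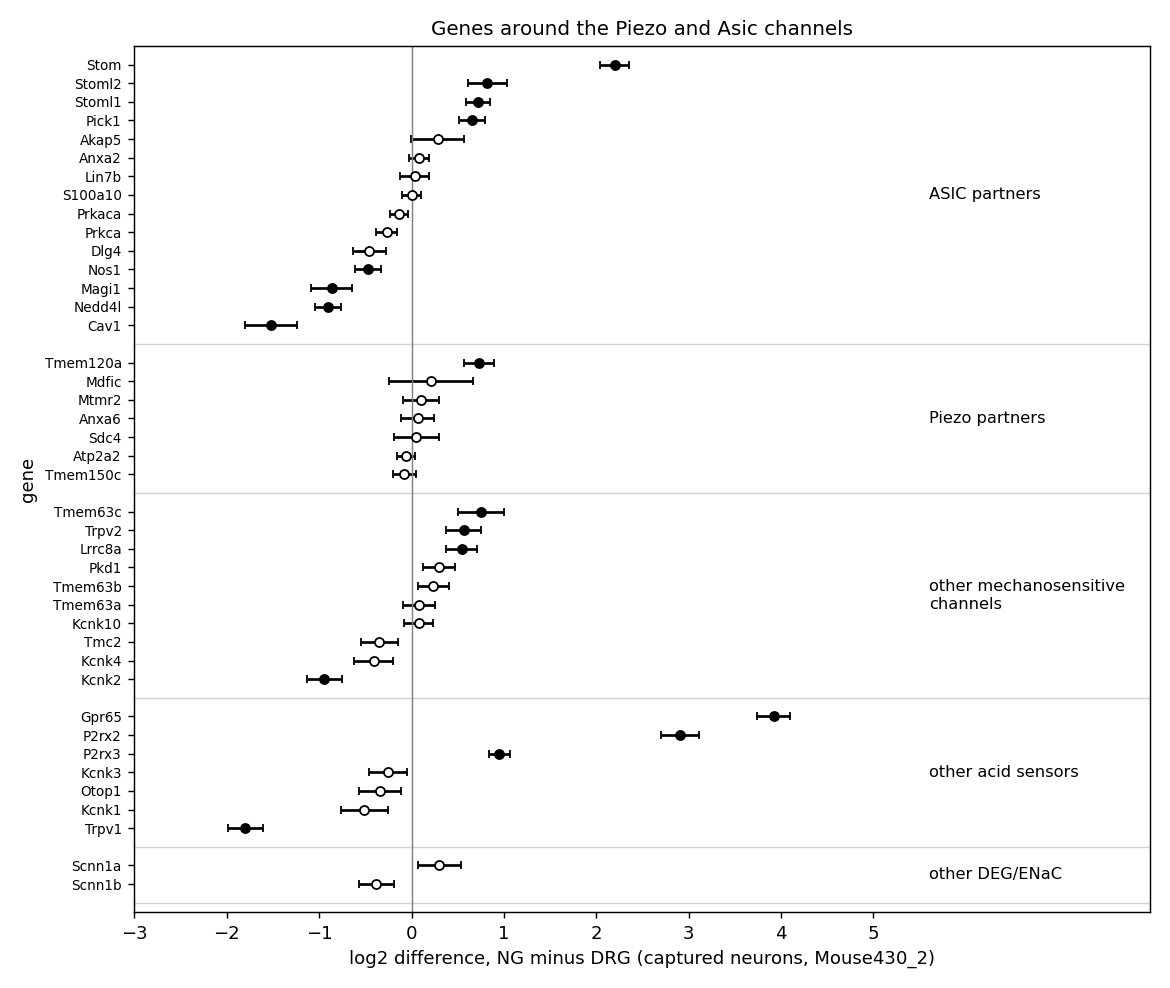
Log2 difference, NG minus DRG, of tested genes around the Piezo and Asic channels in captured neurons on Mouse430_2. Bars are standard errors from limma, filled points have an adjusted p under 0.05, and the lists are named on the right. The ASIC partners have 4 filled points on each side of 0, and Gpr65 stands farthest to the right at 3.92.

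Piezo2 and Asic3 are known from touch and pain neurons, whose genes are set beside them. Of 17 tested genes of low-threshold mechanoreceptors and proprioceptors, 11 were lower and 2 higher in NG neurons, with a median of -0.96. Of the lower calls, Nefl was lost under scaling to the same median (-0.16, adjusted p = 0.377) and Shox2 under quantile normalization (-0.64, adjusted p = 0.0513). Lower ones by limma were Tafa4 (-3.26, adjusted p = 2.39e-09), the potassium channel Kcna1 (-3.23, adjusted p = 1.52e-14), the neurotrophin-3 receptor Ntrk3 (-2.96, adjusted p = 3.12e-09) and the transcription factor Maf (-1.70, adjusted p = 7.51e-07). Higher ones by limma were the BDNF receptor Ntrk2 (2.29, adjusted p = 6.93e-13) and Runx3 (0.75, adjusted p = 0.0153). Of 7 tested Ntrk2 probe sets 3 were called, all higher, and of 6 tested Ntrk3 probe sets 3 were called, all lower. Tafa4 and Maf lay above the 40th percentile of their array in only 4 and 3 of 11 NG arrays, and Runx3 in only 4 of 9 DRG arrays, so that these differences are against levels that may be background. The summed signals of this list ran from 13983 to 17045 in NG neurons and from 21909 to 28036 in DRG neurons and did not overlap.

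Of 9 tested nociceptor genes, 7 were lower in NG neurons and 1, P2rx3, was higher, with a median of -1.82. Lower ones by limma were the peptide gene Calcb (-3.73, adjusted p = 6.19e-10), the artemin receptor Gfra3 (-3.30, adjusted p = 5.39e-11), the irritant channel Trpa1 (-2.71, adjusted p = 1.89e-07) and Tac1, which encodes substance P (-2.49, adjusted p = 5.87e-07). Their part in the Piezo2 and Asic3 differences was not tested.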

How the data were processed

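Total RNA of whole ganglia and RNA of laser-captured neurons was hybridised to Affymetrix arrays. The deposited values are linear signal intensities, 1 per probe set and array, which the authors computed in MAS5, per the submitters' processing notes (version not given in the sources used here). It joins the probes of a set into 1 signal. No detection calls were used, so dim signals can be background. Where a description speaks of laser capture but the extraction protocol of whole ganglia, the protocol was followed. Groups came from the sample titles.

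Trimmed array means, leaving out 2% at either end, spanned 174.9 to 408.3 for whole ganglia, 187.7 to 274.5 for captured neurons hybridised to MG-U74Av2 and 84.24 to 200.5 for Mouse430_2, and arrays were scaled to equal means within an experiment. Log2(signal + pseudocount) was tested, with the 20th percentile of the scaled values as pseudocount (12.3, 10.4 and 7.48, and 11.4 where both MG-U74Av2 experiments were fitted together), so that differences of dim genes come out too small. Tests covered probe sets that exceeded the 40th percentile of their array in a number of arrays no lower than the size of the smaller group. Control probe sets were left out. The two-sided test was limma 3.58.1 (R 4.3.3), using lmFit and an eBayes that was robust and had a trend. Correlations used exact or 100000-resample permutation tests in scipy 1.17.1. The procedure was tested on simulated data.

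Names came from probe sets with 1 symbol in the platform annotation (34958 of 45101 on Mouse430_2, 10855 of 12488 on MG-U74Av2). For a gene with several, the tested one with the highest mean log2 signal (called the brightest) stands for it, and disagreement with others is stated for genes named. From each gene list, at most 4 called genes in each direction were named, by size of log2 difference, and for likeness the 3 genes with the highest r. Genes named beyond these, namely dim or uncalled ones and values on the other array type, were chosen after their values were seen. The 6 genes and the lists were chosen with earlier results of these data known. Alternatives covered scaling, pseudocount, filter, variance model, array weights, sample number as a block and each sample left out.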

Additional observations from a re-analysis of the deposited data

Results flagged for a closer look

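In groups of 4 to 10 arrays, the highest and lowest array of each Piezo and Asic probe set was compared with its neighbour, in 11 combinations of probe set and group. Chance picks out about 1 in 20 of these. It picked out 1, the Asic3 signal of 467 in the DRG captured sample of number 2 on Mouse430_2. This was the lowest of the 9 DRG arrays, with a gap to the next of 0.527 of the group's range, and it still lay above every NG array. The same array read 768 for Piezo2 on 1442115_at and 664 for Asic1, both within the span of the other DRG arrays.

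The ganglion difference on MG-U74Av2 differed between captured neurons and whole ganglia for 7 of 27 tested probe sets of genes around the channels, or 25.9%, by the limma test of the difference itself, where 18.2% of all probe sets were called. It was -1.37 for Kcnk2 (adjusted p = 0.000974), where the ganglion difference was -0.86 in captured neurons and 0.51 in whole ganglia. It was -0.94 for the scaffold Dlg4 (adjusted p = 0.0156), with -0.45 in captured neurons and 0.49 in whole ganglia, and -0.70 for Stoml2 (adjusted p = 0.0168), with 0.27 in captured neurons and 0.97 in whole ganglia. It was 1.10 for Mdfi (adjusted p = 0.00821), 1.12 for Nedd4l on 103907_at (adjusted p = 0.00133), whose brighter probe set gave -0.15 (adjusted p = 0.565), 0.51 for Anxa6 (adjusted p = 0.0383) and 0.48 for Trpv2 (adjusted p = 0.0408). Capture, amplification and experiment cannot be told apart in these values.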

How the results depend on the processing

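Piezo1 (3.73 to 4.61), Piezo2 on 1442115_at (-3.001 to -1.84) and Asic3 (-3.06 to -2.50) kept their direction and stayed called under all 32 alternatives, and Asic4 stayed uncalled under its 31. No called difference of the 6 genes reversed. The Asic1 call was lost under 1 of 32 (only sample numbers absent from MG-U74Av2, adjusted p = 0.131), and Piezo2 on 1430736_at under 1 of 32 (only recurring numbers, -0.79, adjusted p = 0.0832). Asic2 stayed called in whole ganglia under all 21, and was lost in captured neurons on MG-U74Av2 under 10 of 21: scaling to the same median (adjusted p = 0.0502), no filter (0.0522), the fixed replicate block (0.135) and without DRG samples 3, 8, 10 or 14 or NG samples 3, 7 or 14. Captured against whole NG it was lost under 6 of 30, with quantile normalization at 0.052. Calls over all probe sets ran, without each sample in turn, from 5601 to 6355 on Mouse430_2, 1320 to 1612 for captured MG-U74Av2 samples and 2322 to 2904 for whole ganglia.

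With the sample number as a replicate block, fixed, over shared numbers only, calls were 4003 on Mouse430_2, against 6250 without it, and 1059 in captured neurons on MG-U74Av2, against 1652. This fit also uses fewer arrays. As a random block over all arrays it gave 6384 and 1616. What same-numbered NG and DRG arrays had in common besides the number was not known. Their deviations correlated from -0.15 to 0.16 over 7 pairs on Mouse430_2 and from -0.11 to 0.11 over 4 pairs on MG-U74Av2. On each array type, 1 pair had its own number as best match. Whole ganglia shared 1 number, so no block was possible there.

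Scaling to the same median shifted the median log2 difference of all probe sets to 0.09 on Mouse430_2, against -0.05, to -0.05 in whole ganglia, against 0.05, and to 0.17 for captured against whole NG, against 0.02. Calls were then 1020 higher and 1532 lower in whole NG, against 1508 and 1219. For captured against whole NG they were 3008 higher and 1929 lower, against 2175 and 2424, and for the difference of ganglion differences 927 higher and 620 lower, against 641 and 871. Levels near background, such as Piezo1 in DRG neurons, limit the fold changes.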
